A study of Mus musculus with 9 samples.

Results

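The mevalonate arm of cholesterol synthesis was followed through 9 genes, Acat2, Hmgcs1, Mvk, Pmvk, Mvd, Idi1, Fdps, Fdft1 and Sqle, chosen by gene symbol and protein-coding biotype from the 56748 genes of the deposited count table. All 9 were present there, and all 9 were among the 14510 genes with enough counts to be tested. RNA-Seq was performed on Hepa1-6, a mouse hepatoma cell line, in 3 groups of 3 libraries each. The treated groups were exposed to lefamulin or to tiamulin, each at 37 µg/mL for 2 days. Both drugs are pleuromutilin antibiotics, which share a tricyclic core and differ in the side chain attached to it, and both had the same mass concentration and time. The control group received no drug. Its cells are called untreated in the sample labels and vehicle-treated in the methods of the study, so a vehicle in the controls cannot be assumed. All groups are a single cell line, and no source used here says whether the libraries of a group came from separate cultures, so p values measure the spread between these libraries, which may be technical.

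The mevalonate arm builds sterol precursors from acetyl-CoA in the cytosol and endoplasmic reticulum. Acetyl-CoA units are joined into HMG-CoA, mevalonate is phosphorylated and decarboxylated into isopentenyl diphosphate, and these units are condensed through farnesyl diphosphate into squalene, which is then epoxidized on the way to lanosterol. The intermediates also feed dolichol, ubiquinone and protein prenylation. Genes of the arm are known targets of the transcription factor SREBP2, which is held in the endoplasmic reticulum when sterols are plentiful, and the liver is a main site of the pathway.

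Because the 9 genes moved in the same direction in these libraries, the sequences upstream of their starts were examined for 3 short motifs. RefSeq windows of 250 bases before the transcription start, on GRCm38.p6, were matched for 6 of the 9 members, with 7 windows in all since Pmvk has 2 starts. TCACNCCA, the core of a sterol regulatory element, was found in 1 member, Hmgcs1, and in 3.67% of all 32851 windows of this length. CCAAT, the box bound by NF-Y, was found in 5 members and in 33.8% of all windows. GGGCGG, a GC box, was found in 5 members and in 32.7% of all windows. Each motif was searched on both strands, so that ATTGG is CCAAT, and CCGCCC is GGGCGG, on the opposite strand. A match describes the letters only. The windows of 4 members with CCAAT matches are given, one for each of the early, kinase, decarboxylase and isomerase steps, 5′ to 3′ toward the start of the gene, with the motif matches in capitals. No matches overlap in them.
Hmgcs1, chr13:119690101-119690350, plus strand: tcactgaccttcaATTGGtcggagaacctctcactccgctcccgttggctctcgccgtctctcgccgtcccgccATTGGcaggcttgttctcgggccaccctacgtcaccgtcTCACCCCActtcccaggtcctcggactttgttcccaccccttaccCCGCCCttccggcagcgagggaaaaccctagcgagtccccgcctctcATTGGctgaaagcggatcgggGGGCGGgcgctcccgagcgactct
Mvk, chr5:114444019-114444268, plus strand: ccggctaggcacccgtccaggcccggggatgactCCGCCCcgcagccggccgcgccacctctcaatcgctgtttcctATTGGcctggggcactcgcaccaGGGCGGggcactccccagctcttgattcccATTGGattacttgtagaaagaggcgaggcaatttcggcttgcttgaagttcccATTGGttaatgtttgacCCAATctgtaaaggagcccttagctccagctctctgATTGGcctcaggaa
Mvd, chr8:122443423-122443672, minus strand: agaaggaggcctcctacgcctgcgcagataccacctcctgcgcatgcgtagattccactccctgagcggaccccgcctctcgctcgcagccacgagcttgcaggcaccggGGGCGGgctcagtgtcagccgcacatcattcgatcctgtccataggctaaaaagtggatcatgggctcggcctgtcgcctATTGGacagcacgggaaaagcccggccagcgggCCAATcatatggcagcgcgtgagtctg
Idi1, chr13:8885356-8885605, plus strand: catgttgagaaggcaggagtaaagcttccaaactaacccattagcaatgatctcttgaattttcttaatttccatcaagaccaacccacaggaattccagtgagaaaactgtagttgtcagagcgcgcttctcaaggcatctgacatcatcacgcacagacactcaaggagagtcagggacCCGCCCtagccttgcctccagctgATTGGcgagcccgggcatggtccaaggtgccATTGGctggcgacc
The Hmgcs1 window holds the TCACCCCA match, whose first base lies 137 bases before the start, between CCAAT matches at 176 and 45 bases. The Mvk window holds 5 CCAAT matches, the most of the 6 members, and Mvd and Idi1 hold 2 each. In the Idi1 window they lie 45 and 14 bases before the start. Pmvk held 1 CCAAT match and Acat2 held 1 GGGCGG match and no CCAAT match. Windows of Fdps, Fdft1 and Sqle were not analysed here.

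Total counts on genes lay between 15568887 and 18008105 per library, and the normalization factors of the TMM method lay between 0.994 and 1.01. Of 13 hepatic markers 10 had enough counts to be tested. The mean FPKM in controls, lefamulin and tiamulin libraries was 872.1, 754.3 and 650.3 for Apoe, 284.3, 260.8 and 162.6 for Afp, 206.9, 174.5 and 146.6 for Alb and 75.2, 65.1 and 72.6 for Hnf4a. Other members of the list lay above the controls in a treated group, with 762.8, 713.0 and 989.3 for Krt18, 304.3, 287.3 and 357.5 for Krt8 and 166.4, 200.7 and 175.8 for Trf. Under lefamulin 1 hepatic marker was raised and 2 were lowered, and under tiamulin 1 was raised and 4 were lowered. The list summed to 5724 to 6287, 5526 to 5857 and 5132 to 6053 CPM (counts scaled to a fixed library total), while Serpina1a had no count and Ttr and Apoa1 had at most 10 counts in any library. The 7 blood cell markers summed to between 11.1 and 11.2 CPM in the controls, 12.3 to 17.8 under lefamulin and 16.4 to 21.2 under tiamulin, with Adgre1 and Cd3e among those at 0 in all libraries. Of the 3 tested, 2 were raised and 1 lowered under each drug, Cd68 having a mean FPKM of 6.61, 10.3 and 13.4 in the 3 groups and Csf1r 0.456, 0.181 and 0.182. The 4 endothelial markers summed to 2.31 to 2.83, 6.49 to 7.28 and 4.85 to 6.77 CPM, with Cdh5 and Kdr at no more than 10 counts. The 6 fibroblast and stellate markers summed to 1475 to 1556, 1136 to 1188 and 1028 to 1116 CPM. Most of that sum was Dcn, with a mean FPKM of 261.4 in controls, 195.7 under lefamulin and 186.1 under tiamulin, and Col1a2, Col3a1, Pdgfrb and Lrat had no more than 10 counts. The blood and endothelial sums were higher, and the fibroblast and stellate sum lower, in all 6 treated libraries than in the controls. The part of these markers in the results was not tested. In such bulk libraries fewer cells of a type and less RNA per cell cannot be told apart.

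The control cells expressed the 9 genes at levels that spanned more than an order of magnitude per unit of transcript length. Sqle, which encodes squalene epoxidase, had the highest FPKM, 73.5 ± 1.07 (SD, n = 3, as for all means here), followed by Hmgcs1, the cytosolic HMG-CoA synthase, with 44.0 ± 2.37. A middle group held Idi1 with 19.0 ± 0.386, Pmvk with 16.4 ± 0.666, Fdft1 with 16.4 ± 0.646, Acat2 with 13.0 ± 0.133 and Mvd with 11.1 ± 0.823. Mvk with 4.32 ± 0.329 and Fdps with 2.18 ± 0.115 were lowest. In this order only the neighbours Pmvk and Fdft1 overlapped among the control libraries. Under lefamulin the means of Pmvk, Acat2, Mvd and Fdft1 lay between 22.9 and 23.7 and their libraries overlapped. Under tiamulin those 4 genes and Idi1 lay between 23.0 and 26.2, with overlapping neighbours throughout, and Sqle, Hmgcs1, Mvk and Fdps kept their places at both ends.

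**Figure D1:**
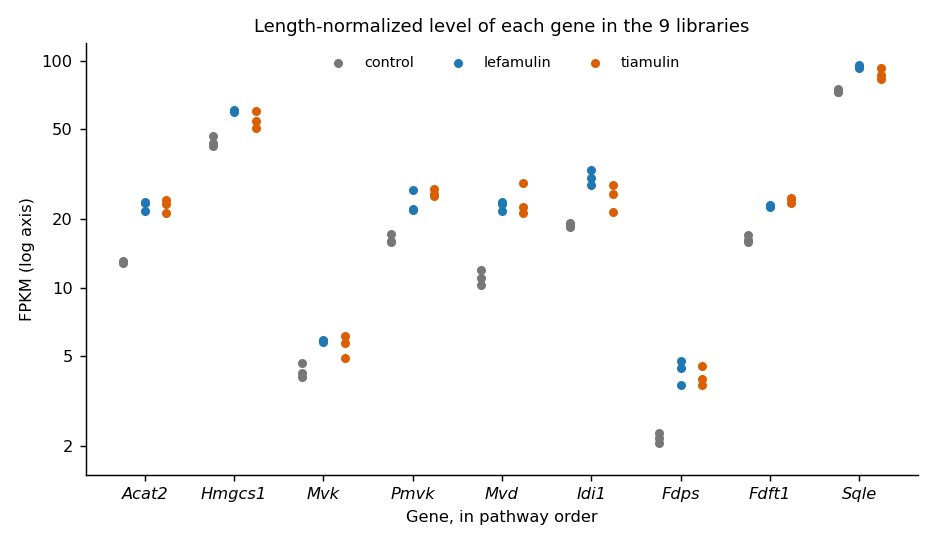
FPKM of the 9 genes on a log axis, in pathway order from left to right, with a point for each library (grey control, blue lefamulin, orange tiamulin). Sqle lies highest at 72.9 to 95.5 FPKM and Fdps lowest at 2.07 to 4.77, and for each gene the treated points lie above the control points.

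The FPKM of the 9 genes summed to 199.9 ± 3.78 in the controls, 287.5 ± 2.66 under lefamulin and 274.8 ± 8.20 under tiamulin, 1.44 and 1.375 times the control mean. The sum was 199.9, 196.2 and 203.7 in the 3 controls, 289.2, 284.5 and 289.0 in the lefamulin libraries and 266.5, 275.0 and 282.9 in the tiamulin libraries, so that the controls lay apart from both drugs. Within the sum, Sqle took 36.8% ± 0.379 in the controls, 32.8% ± 0.696 under lefamulin and 31.8% ± 1.77 under tiamulin. The share of Mvd was 5.55% ± 0.379, 7.99% ± 0.301 and 8.85% ± 1.44, and that of Acat2 was 6.50% ± 0.0567, 8.01% ± 0.306 and 8.37% ± 0.504. Hmgcs1 took 22.0% ± 0.958, 20.9% ± 0.299 and 19.9% ± 1.47, and Fdft1 took 8.20% ± 0.320, 7.96% ± 0.154 and 8.85% ± 0.457. The shares of Sqle were thus lower, and those of Mvd and Acat2 higher, in the treated groups by more than their SD. The level of Fdps is uncertain, since its deposited interval shares 7512 bases with Gm43738, a protein-coding gene on the same strand with at most 2 counts in any library, and the sources used here do not say how reads on shared bases were counted.

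Against the controls, each of the 9 genes was raised under lefamulin and each was raised under tiamulin (edgeR's quasi-likelihood test, Benjamini-Hochberg adjusted p below 0.05 over the 14510 tested genes). Over all tested genes 7.09% were raised by this rule under lefamulin and 9.08% under tiamulin. The changes lay between 1.28-fold and 2.07-fold under lefamulin, with a median log2(fold change) of 0.53, and between 1.19-fold and 2.19-fold under tiamulin, with a median of 0.57. The medians over all tested genes were -0.0018 and 0.0034. Only Mvd also passed a log2(fold change) of 1, the threshold of the study, under either drug, where 0.979% and 1.05% of all tested genes were raised by that rule. Under lefamulin Fdps passed it as well without control 3 (1.02) or lefamulin 3 (1.075), which makes 2 genes, and none passed it with limma on log2(FPKM + 1), where Mvd had 0.99. For all 9 genes the 3 lefamulin libraries lay above the 3 controls in CPM, as for 18.9% of tested genes, and the 3 tiamulin libraries did too, as for 17.1%. Both comparisons use the same 3 controls and are therefore not independent. Positions given below for these genes are as deposited, in a build other than GRCm38, since none of the 9 has its GRCm38 start and end. The counts of 9 of 9 under both drugs stayed at 9 without the library tiamulin 2 and with GC and length offsets. They fell to 8, with Mvk lost, without control 2, control 3 or any lefamulin library under both drugs. Under tiamulin the count also fell to 8 without tiamulin 3, with the 2 groups compared alone and with replicate number as a block.

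**Figure D2:**
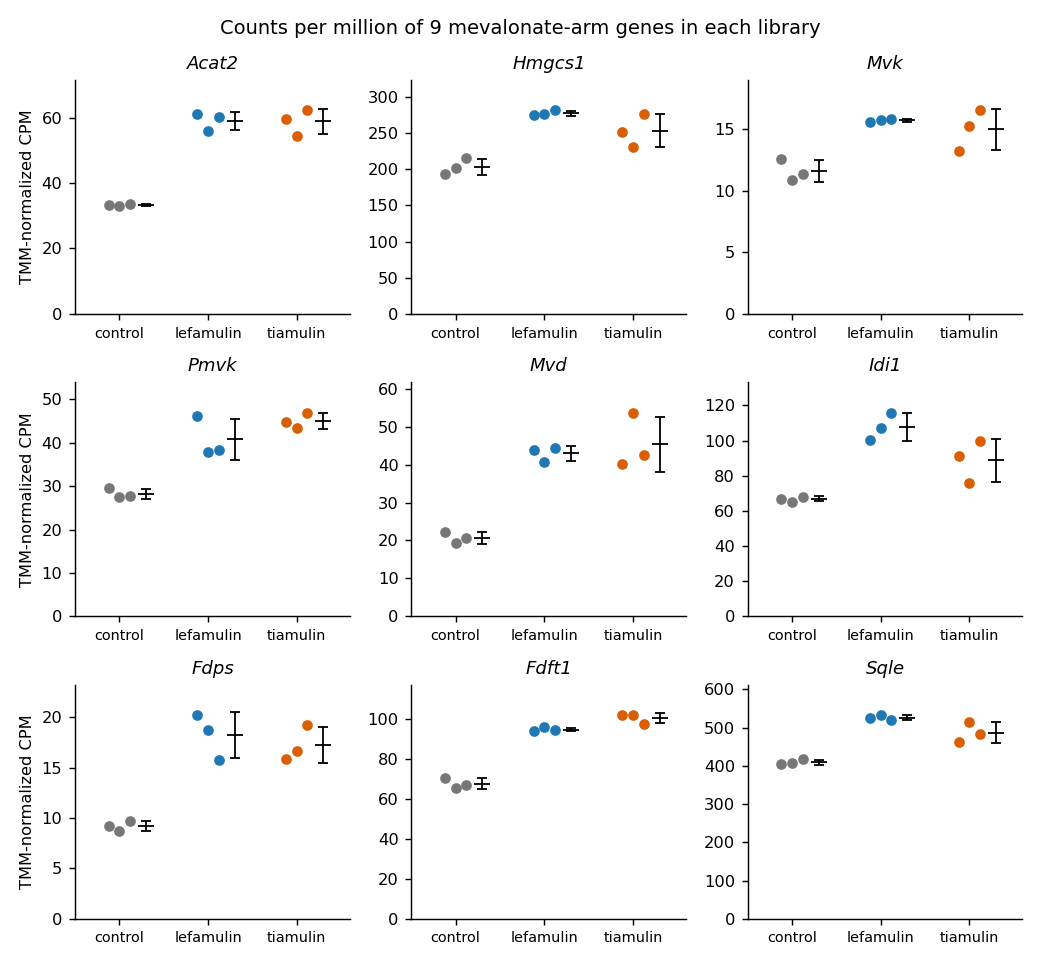
TMM-normalized CPM of each of the 9 genes in the 3 control (grey), 3 lefamulin (blue) and 3 tiamulin (orange) libraries, with the mean and SD of each group as a black bar beside its points and each axis starting at 0. In each panel all treated points lie above all control points, narrowly for Mvk under tiamulin, 13.2 CPM against a highest control of 12.6.

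At the entry of the pathway, Acat2 (ENSMUSG00000023832, chr17:13161777-13179634, minus strand) encodes the cytosolic thiolase that joins acetyl-CoA into acetoacetyl-CoA. It is not the sterol acyltransferase that has also been called ACAT2. Acat2 had 33.2, 32.9 and 33.6 CPM in the controls, 61.0, 55.8 and 60.2 with lefamulin and 59.7, 54.5 and 62.2 with tiamulin. The controls were within 1 CPM of each other and the treated libraries lay well above them. The log2(fold change) was 0.83 ± 0.07 (SE) under lefamulin with an adjusted p of 5.43e-06 and 0.82 ± 0.07 under tiamulin with an adjusted p of 4.11e-06, both by edgeR. Hmgcs1 (ENSMUSG00000093930, chr13:120151915-120169796, plus strand), the synthase of the next step, had 193.6, 201.0 and 215.4 CPM in the controls, 274.6, 276.0 and 281.4 with lefamulin and 251.3, 231.0 and 276.7 with tiamulin. The lefamulin libraries lay close together and tiamulin 2 was the lowest treated library. Its log2(fold change) was 0.45 ± 0.07 (edgeR adjusted p = 0.000522) and 0.32 ± 0.07 (edgeR adjusted p = 0.00497). An antisense gene within Hmgcs1, Gm48342, shares 6190 bases with it but had at most 19 counts, against at least 3353 for Hmgcs1.

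Kinase and decarboxylase steps turn mevalonate into isopentenyl diphosphate. Mvk (ENSMUSG00000041939, chr5:114582330-114598652, plus strand), mevalonate kinase, had few reads, 187 to 218 in the controls and 217 to 281 in the treated libraries. Its level was 12.6, 10.9 and 11.3 CPM in the controls, 15.6, 15.7 and 15.8 with lefamulin and 13.2, 15.2 and 16.5 with tiamulin. The tiamulin libraries were spread over a range that began just above the highest control. The log2(fold change) of Mvk was 0.44 ± 0.11 under lefamulin (edgeR adjusted p = 0.0177) and 0.37 ± 0.11 under tiamulin (edgeR adjusted p = 0.0339). No other member lost its call against the controls in any of the 20 alternatives tried. The lefamulin call was lost without control 2 (log2(fold change) 0.39, edgeR adjusted p = 0.0675), control 3 (0.42, 0.0741) or any of lefamulin 1, 2 and 3 (0.44, 0.44 and 0.43, with 0.0543, 0.0634 and 0.0616). The tiamulin call was lost without control 2 (0.33, edgeR adjusted p = 0.122), control 3 (0.35, 0.113) or tiamulin 3 (0.29, 0.124). Leaving out any lefamulin library ended it as well (0.37 each, 0.0515 to 0.0523). It was also lost with the 2 groups compared alone (0.37, 0.0835) and with replicate number as a block. Mmab, a cobalamin gene whose start lies 208 bases from that of Mvk on the opposite strand, had log2(fold change) values of 0.07 (edgeR adjusted p = 0.739) and 0.29 (edgeR adjusted p = 0.0833).

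Pmvk (ENSMUSG00000027952, chr3:89361848-89376320, plus strand), phosphomevalonate kinase, had 29.6, 27.4 and 27.8 CPM in the controls, 46.3, 37.8 and 38.4 with lefamulin and 44.9, 43.3 and 46.9 with tiamulin. Lefamulin 1 lay above the other libraries of its group, in the range of the tiamulin libraries. The log2(fold change) was 0.53 ± 0.09 (edgeR adjusted p = 0.00125) and 0.67 ± 0.09 (edgeR adjusted p = 0.000132). Mvd (ENSMUSG00000006517, chr8:123160340-123170161, minus strand), mevalonate diphosphate decarboxylase, showed the largest log2(fold change) of the 9 genes under both drugs, except under lefamulin without lefamulin 3, where Fdps had 1.075 and Mvd 1.03. It had 22.3, 19.2 and 20.7 CPM in the controls, 43.8, 40.7 and 44.4 with lefamulin and 40.1, 53.7 and 42.4 with tiamulin. All treated libraries were at 40.1 CPM or higher, and tiamulin 2 was highest. Mvd was raised 2.07-fold under lefamulin (95% interval 1.765 to 2.43, edgeR adjusted p = 2.07e-05) and 2.19-fold under tiamulin (1.87 to 2.57, edgeR adjusted p = 7.49e-06). Its log2(fold change) under tiamulin was 1.13, and 0.99 without tiamulin 2, which leaves no gene of the arm past 1 under tiamulin.

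**Figure D3:**
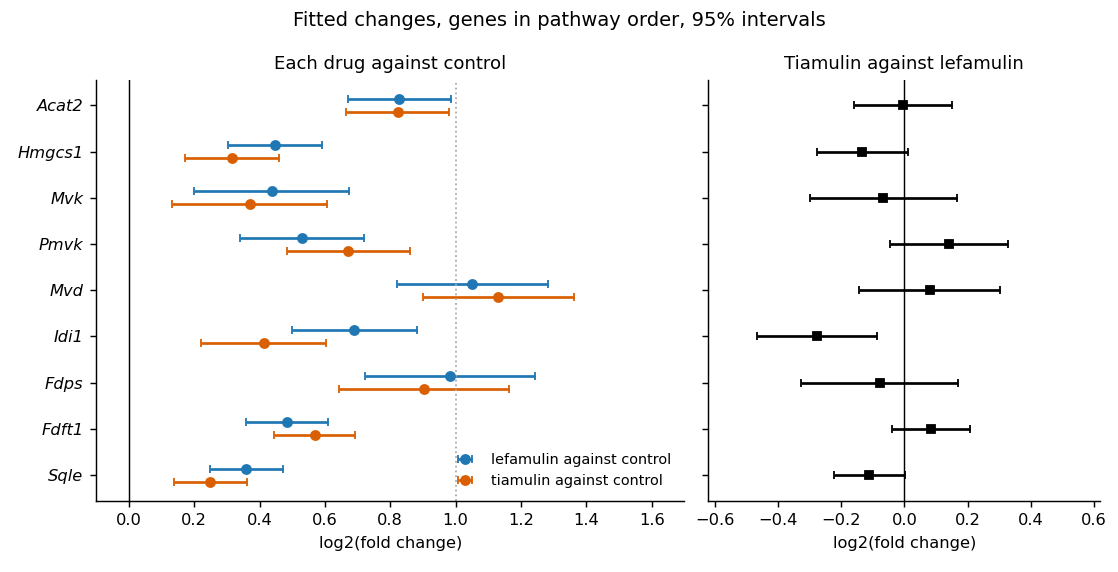
Left, log2(fold change) of each gene against control for lefamulin (blue) and tiamulin (orange) with 95% intervals, genes in pathway order from the top and a dotted line at 1. Right, tiamulin against lefamulin with 95% intervals. On the left all intervals lie above 0 and only the Mvd points lie past 1, and on the right only the Idi1 interval excludes 0.

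Idi1 and Fdps carry the isoprene units on to farnesyl diphosphate. Idi1 (ENSMUSG00000058258, chr13:8935537-8942487, plus strand), the isomerase that supplies dimethylallyl diphosphate, had 66.9, 65.3 and 68.1 CPM in the controls, 100.2, 107.0 and 115.8 with lefamulin and 91.2, 75.6 and 99.8 with tiamulin. Each tiamulin library lay between the controls and the lefamulin libraries. Its log2(fold change) was 0.69 ± 0.09 under lefamulin (edgeR adjusted p = 0.000154) and 0.41 ± 0.09 under tiamulin (edgeR adjusted p = 0.0057). Idi1 has processed copies annotated as pseudogenes, of which Idi1-ps1 had 19 to 51 counts, Idi1-ps5 at most 8 and the other 3 at most 1, against 1122 or more for Idi1. Fdps (ENSMUSG00000059743, chr3:89000895-89009266, minus strand), farnesyl diphosphate synthase, had 9.18, 8.73 and 9.72 CPM in the controls, 20.2, 18.7 and 15.8 with lefamulin and 15.8, 16.6 and 19.3 with tiamulin. The groups treated with either drug covered nearly the same range, above the controls. Its log2(fold change) was 0.98 ± 0.12 (edgeR adjusted p = 0.000104) and 0.90 ± 0.12 (edgeR adjusted p = 0.000162), on 150 to 174 reads in the controls and 257 to 327 under treatment. On log2(FPKM + 1), which understates changes of low genes, the values were 0.73 and 0.67.

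Fdft1 (ENSMUSG00000021273, chr14:63382599-63417027, minus strand), squalene synthase, takes the pathway into sterols, and Sqle (ENSMUSG00000022351, chr15:59186926-59203041, plus strand) epoxidizes the product. Fdft1 had 70.7, 65.5 and 67.1 CPM in the controls, 94.1, 95.9 and 94.5 with lefamulin and 101.9, 102.0 and 97.8 with tiamulin. Both treated groups were tight, and the tiamulin libraries lay above the lefamulin libraries. The log2(fold change) was 0.48 ± 0.06 (edgeR adjusted p = 8.25e-05) and 0.57 ± 0.06 (edgeR adjusted p = 1.45e-05). The end of Fdft1 shares 774 bases with Ctsb, cathepsin B, on the opposite strand. Ctsb had 5273 to 5544 counts in the controls, 5551 to 5844 under lefamulin and 6558 to 6976 under tiamulin. It was raised under both drugs, with a log2(fold change) of 0.20 (edgeR adjusted p = 0.028) and 0.42 (edgeR adjusted p = 0.000114). The lefamulin call of Ctsb held in 14 of the 20 alternatives. Leaving out control 2, control 3 or any lefamulin library ended it (0.17 to 0.21). Whether the counting used strand is not stated, so in both comparisons part of the reads of the 2 genes cannot be told apart. Sqle had 406.0, 406.5 and 417.2 CPM in the controls, 525.7, 532.6 and 519.3 with lefamulin and 462.6, 515.7 and 482.9 with tiamulin. It had the smallest log2(fold change) of the arm under both drugs, 0.36 ± 0.05 (edgeR adjusted p = 0.000389) and 0.25 ± 0.05 (edgeR adjusted p = 0.00439). Without tiamulin 3 it had 0.26 under tiamulin and Hmgcs1 0.25, so that order rests on 1 library. Its mean FPKM went from 73.5 to 94.3 and 87.4.

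The 3 genes with the largest log2(fold change) under each drug were Mvd, Fdps and Acat2, which held positions 7, 9 and 6 by FPKM in the controls. Sqle, at position 1, had the smallest value under each drug, with the limit given above for tiamulin. Under lefamulin the other 5 genes lay between 0.44 for Mvk and 0.69 for Idi1, and under tiamulin between 0.32 for Hmgcs1 and 0.67 for Pmvk. Neighbouring positions in these orders mostly had overlapping 95% intervals, as for Mvd, 0.82 to 1.28, and Fdps, 0.72 to 1.24, under lefamulin.

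The pleuromutilins were then compared with each other, at the same mass concentration and time. None of the 9 genes differed by edgeR's quasi-likelihood test at an adjusted p below 0.05, a rule that called 4.9% of all tested genes, and DESeq2 also called 0. At an unadjusted p below 0.05 there was 1, against 21.6% of all tested genes. It was Idi1, lower under tiamulin with a log2(fold change) of -0.28 (95% interval -0.47 to -0.09, edgeR adjusted p = 0.0871). Sqle was next at -0.11 (-0.22 to 0.0004, edgeR adjusted p = 0.233). For 3 of the 9 genes the libraries of the drugs did not overlap in CPM, Idi1 and Sqle being lower and Fdft1 higher under tiamulin, while 26.5% of tested genes did not overlap in either direction. The intervals of the other 7 genes include 0 but leave room for differences. They were -0.16 to 0.15 for Acat2, -0.28 to 0.01 for Hmgcs1, -0.30 to 0.17 for Mvk, -0.04 to 0.33 for Pmvk, -0.14 to 0.30 for Mvd, -0.33 to 0.17 for Fdps and -0.04 to 0.21 for Fdft1. The bound farthest from 0 was that of Idi1.

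Base composition was examined because libraries differed in it. In tiamulin 2 the deviation of genes from their group mean rose with their GC content (Spearman's rho 0.617 across 12391 genes), and in tiamulin 1 and tiamulin 3 it fell with it, with -0.442 and -0.489 (across genes, which are not independent replicates). Deviations are from the mean of the 3 libraries of a group, so the values of a group depend on each other. The controls also differed, with 0.405 in control 1, -0.408 in control 2 and 0.0213 in control 3, while the lefamulin libraries lay between -0.105 and 0.146. The part of these trends in the results was not tested apart from gene length. Among the 9 genes Mvd has the highest GC content, 59.0%, and was 0.38 higher in tiamulin 2 than in the mean of the other tiamulin libraries, on the log2 CPM scale. Idi1 has the lowest, 41.9%, and had -0.34, and Hmgcs1, with 43.1%, had -0.19. The other genes did not follow this order, as Pmvk, with 57.0%, had -0.083, Mvk, with 56.3%, had 0.045, and Sqle, with 48.6%, had 0.13. Acat2, Fdps and Fdft1, with 49.6% to 51.8%, had -0.16, -0.070 and 0.031. With GC and length offsets fitted in each library, 2 genes differed between the drugs, Idi1 with a log2(fold change) of -0.21 (edgeR adjusted p = 0.0115) and Sqle with -0.13 (edgeR adjusted p = 0.0189), in a fit that called 13.1% of all tested genes. Without tiamulin 2, Sqle differed with -0.15 (edgeR adjusted p = 0.0137) and Idi1 had -0.17 (edgeR adjusted p = 0.0874), and without tiamulin 3, Idi1 differed with -0.37 (edgeR adjusted p = 0.0276). These fits called 8.79% and 6.0% of their tested genes. Both genes stayed lower under tiamulin in all 20 alternatives, while the calls depended on the setting.

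**Figure D4:**
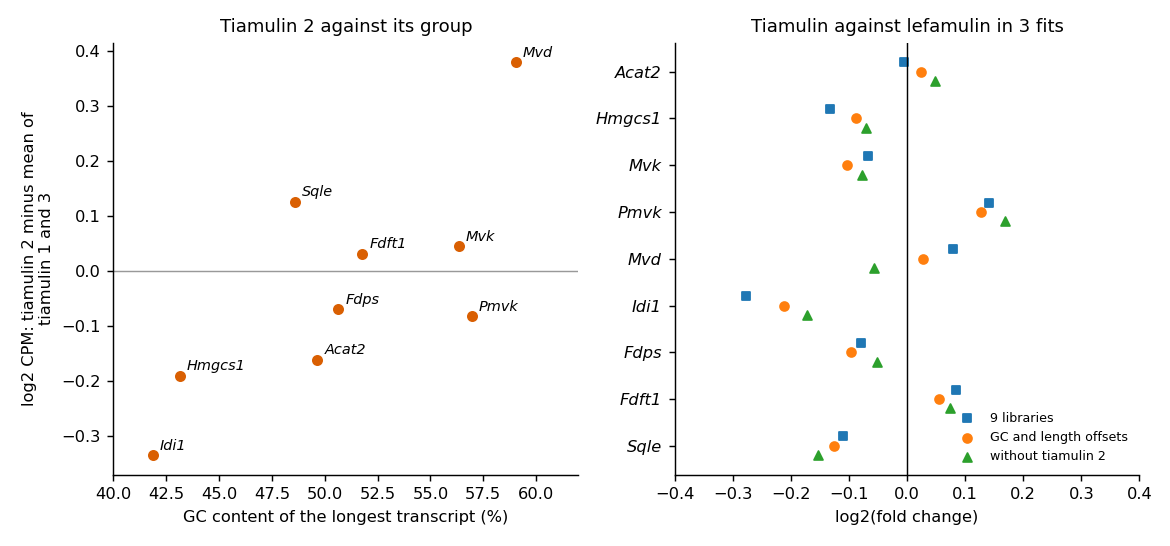
Left, for each of the 9 genes, log2 CPM in tiamulin 2 minus the mean of tiamulin 1 and 3 against the GC content of its longest transcript in percent, from -0.34 for Idi1 to 0.38 for Mvd. Right, log2(fold change) of tiamulin against lefamulin in all 9 libraries (squares), with GC and length offsets (circles) and without tiamulin 2 (triangles), where Idi1 and Sqle lie below 0 in all 3.

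Genes further along and around the pathway were counted from lists, against a background of 6.0% of tested genes lowered under lefamulin and 7.34% under tiamulin beside the shares raised given above. A list of 11 enzymes ran from lanosterol synthase, which makes lanosterol, to cholesterol. Of these, 9 were raised and none lowered under lefamulin, with a median log2(fold change) of 0.44. Under tiamulin 6 were raised and none lowered, with a median of 0.35. The 3 largest under lefamulin were Tm7sf2, a sterol reductase, with 0.87, Lss, lanosterol synthase, with 0.82, and Hsd17b7, a sterol ketoreductase, with 0.73. Under tiamulin they were Tm7sf2 with 0.83, Dhcr7, the last reductase of the pathway, with 0.74, and Lss with 0.68. Among 11 genes of SREBP2 regulation, LDL uptake and sterol transport, 4 were raised and 1, the protease gene Mbtps1 (-0.33), was lowered under lefamulin, and 4 were raised under tiamulin, with medians of 0.11 and 0.16. The Mbtps1 call was lost without control 1, control 3, lefamulin 1 or lefamulin 2, at values of -0.29 to -0.34, and with limma on FPKM. Under tiamulin Mbtps1 had -0.21 and was called lower without tiamulin 2 (-0.33). The raised genes included Insig1, which retains SREBP2 in the endoplasmic reticulum, with 0.72 and 0.47, and Npc2, a lysosomal cholesterol carrier, with 0.41 and 0.53. Stard4, a sterol carrier, was raised with 0.38 under lefamulin and had 0.18 under tiamulin (edgeR adjusted p = 0.126). Its difference between the drugs was not called. Npc1, the lysosomal partner of Npc2, was raised with 0.53 under tiamulin and had 0.11 under lefamulin (edgeR adjusted p = 0.242). Both medians of these lists lay below those of the mevalonate arm.

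The branches that leave the arm were examined next, since they use its isoprenoid units. Of 12 genes for dolichol, ubiquinone and prenylation, none was called in either direction under lefamulin by the reported edgeR fit or by DESeq2. At an unadjusted edgeR p below 0.05, 2 were higher and 2 lower (14.1% and 13.1% of all tested genes). The median log2(fold change) was -0.0035. Over the alternatives 0 to 3 were raised and 0 to 2 lowered under lefamulin. With GC and length offsets 2 were lowered, and without tiamulin 2 also 2. In this list 2 were raised under tiamulin, Rabggta, a Rab prenyltransferase subunit, with 0.45 and Pdss2, for the ubiquinone side chain, with 0.30. Pdss1, its partner gene, had -0.55 under tiamulin (edgeR adjusted p = 0.0514), and was called lower there in 8 of the 20 alternatives, among them DESeq2 (-0.55, adjusted p = 0.0381) and without tiamulin 1 (-0.72, edgeR adjusted p = 0.0239). Without tiamulin 2 it had -0.33 (edgeR adjusted p = 0.0911). The Pdss2 call held in 15 of the 20 alternatives. Among single libraries left out, it was lost without control 1, control 2 or tiamulin 1, at values of 0.26 to 0.29. Of 8 genes for acetyl-CoA supply and isozymes of the arm, 6 could be tested, of which 2 were raised and none lowered under lefamulin, and 3 were raised and 2 lowered under tiamulin. Acss2, which makes acetyl-CoA from acetate, was raised with 1.28 and 1.41 on the count scale, and with 0.73 and 0.82 on log2(FPKM + 1), where Mvd had 0.99 and 1.06. Acly, which makes it from citrate, was raised with 0.33 and 0.34. Aacs, which activates acetoacetate, was raised under tiamulin with 0.35 (edgeR adjusted p = 0.016), a call held in 16 of the 20 alternatives. Among single libraries left out, it was lost without control 2 (0.31, edgeR adjusted p = 0.0774). Without tiamulin 2 the value was 0.21 (edgeR adjusted p = 0.00419). Aacs had 0.25 under lefamulin (edgeR adjusted p = 0.0919), where it was called without tiamulin 2 (0.24, edgeR adjusted p = 0.00035). The Acly call under lefamulin was lost without lefamulin 3 (0.30, edgeR adjusted p = 0.0515). The mitochondrial thiolase gene Acat1 had a log2(fold change) of -0.23 under lefamulin (edgeR adjusted p = 0.174) and was lowered under tiamulin, -0.44 (edgeR adjusted p = 0.0127), a call lost without control 2 (-0.39). Acat3, a close copy of Acat2 that begins 2289 bases from it and shares 1255 bases with Tcp1, had 8 to 30 counts and was lowered under tiamulin, -1.13 (edgeR adjusted p = 0.0291). That call held in 8 of the 17 alternatives that tested Acat3. Leaving out any control, tiamulin 2 or tiamulin 3 ended it, as did DESeq2, no filter and the 2 groups compared alone. Tcp1, a chaperonin subunit, had -0.01 and -0.08, not called. Idi2, an isozyme of Idi1, had at most 5 counts, too few to test. Of 10 genes of fatty acid synthesis 4 were raised and 2 lowered under lefamulin, and 3 were raised and 2 lowered under tiamulin. Scd1, a desaturase, was raised with 0.54 and 0.33, while Scd2, the desaturase with the higher level (a mean of 419.7 FPKM in the controls against 93.0 for Scd1), was lowered with -0.24 (edgeR adjusted p = 0.00367) and -0.29 (edgeR adjusted p = 0.000544). Srebf1, which encodes SREBP1, was lowered with -0.56 and -0.46. The tiamulin call of Srebf1 held in 13 of the 20 alternatives. It was lost without control 1, control 3, tiamulin 1 or tiamulin 3 (-0.36 to -0.45). The 2 groups compared alone and limma on FPKM lost it too. Fads2, a desaturase, was raised with 0.28 and 0.32. Acsl3, an acyl-CoA ligase, was raised under lefamulin with 0.44 and had 0.11 under tiamulin (edgeR adjusted p = 0.191), where it was called without tiamulin 2 (0.15, edgeR adjusted p = 0.0135).

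**Figure D5:**
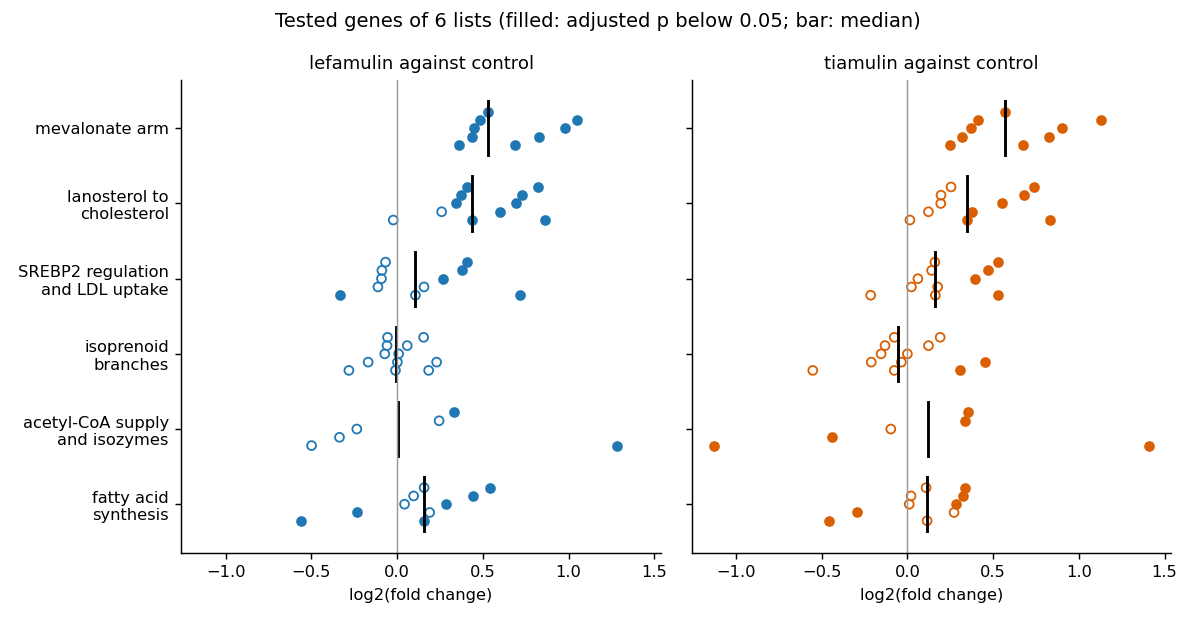
Log2(fold change) against control of the tested genes of 6 lists, lefamulin in the left panel and tiamulin in the right, filled where the adjusted p was below 0.05 and open elsewhere, with the median of each list as a black bar. The medians of the mevalonate arm lie at 0.53 and 0.57 and those of the isoprenoid branches at -0.0035 and -0.06.

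The profile of the 9 genes over the 9 libraries was finally compared with that of the other 11795 tested protein-coding genes. The mean of the 9 centred log2 CPM profiles ran from -0.46 to -0.38 in the controls, 0.21 to 0.26 under lefamulin and 0.14 to 0.26 under tiamulin. The nearest genes, by root-mean-square difference in log2 CPM over the 9 libraries, were Mfsd6 at 0.057, Klf9 at 0.064, Gm2a at 0.064, Areg at 0.068 and Rdh11 at 0.071. Of the 9 genes themselves Fdft1 was nearest to the mean profile, 0.086, with 11 other genes nearer, and Mvd was farthest, 0.25, with 1936 nearer. The profile was computed from the 9 genes themselves, so these distances are a description.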

How the data were processed

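RNA-Seq libraries of Hepa1-6 cells, 3 control, 3 lefamulin and 3 tiamulin, were grouped by their sample labels. Values deposited by the authors were raw read counts of each gene and FPKM, scaled by library size and gene length. No column of values was left unmapped. The submitters' processing notes list CASAVA 1.8, fastp, HISAT2 2.0.5, featureCounts 1.5.0-p3, DESeq2 1.20.0 and mm10, without roles, and the use of strand is not given in the sources used here. Only 1487 of 52088 nuclear genes (2.85%) had their GRCm38 start and end, so the deposited positions are of another build.

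Counts were normalized with TMM, filtered with filterByExpr and the quasi-likelihood test of edgeR 4.0.16 (R 4.3.3) was run with robust dispersions, group as the only term and Benjamini-Hochberg adjustment over 14510 genes. A gene was called at an adjusted p below 0.05. FPKM served for levels between genes. GC content came from the longest GENCODE M21 transcript and was known for 98.15% of tested genes. Depth was 15568887 to 18008105 counts per library, and genes with few counts carry more counting error. No pairing by replicate number was seen, with 0 of 9 same-number pairs of libraries correlated above 0.1 in their deviations from the group mean. These deviations also hold the GC trends, so the check cannot exclude a pairing.

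Alternatives were DESeq2 size factors, DESeq2 1.42.0, no filter, at least 10 counts in every library, the 2 groups compared alone, the replicate block, offsets for GC content and gene length, limma 3.58.1 on log2(FPKM + 1) and log2(FPKM + 0.1) for genes over 1 FPKM in at least 3 libraries, and leaving out each library. Offsets without tiamulin 2 were added after seeing the data. The members and lists were chosen with earlier results of these data known. Named genes were the 9 members, up to 3 called genes with the largest changes per list and drug, isozymes, neighbours and overlapping genes of members, and the 5 nearest profiles. Mbtps1, Scd2, Pdss1 and Aacs were named after their values were seen. Values of some list genes are not reported here.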

Additional observations from a re-analysis of the deposited data

Results flagged for a closer look

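None of the 9 genes differed between the drugs at an adjusted p below 0.05 by edgeR. Of the other genes named, 7 did in the direct comparison of tiamulin with lefamulin, a rule that called 4.9% of all tested genes. They are listed for that reason. List genes were named by their largest called changes under either drug, so genes called under a single drug could enter. The count of 7 is therefore a description. The log2(fold change) was -0.54 for Hsd17b7, -0.34 for Acsl3 and 0.42 for Npc1, and each of these was called without any single library. It was -0.24 for Insig1, -0.21 for Scd1, 0.30 for Rabggta and 0.22 for Ctsb, which lost their calls without 7, 5, 7 and 5 of the 9 libraries, respectively, each left out in turn. Hsd17b7, Acsl3, Insig1 and Scd1 were lower under tiamulin, and Npc1, Rabggta and Ctsb were higher. Of the 9 genes, none of them called, 6 had lower estimates under tiamulin, Idi1 and Sqle among them. The other 3, Pmvk, Fdft1 and Mvd, had higher estimates.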

How the results depend on the processing

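Against the controls, all 9 genes kept their direction in all 20 alternatives under both drugs, and 8 kept their call. Mvk lost it in 5 of them under lefamulin and 8 under tiamulin, where it had 0.37 with the 2 groups alone (edgeR adjusted p = 0.0835) and 0.37 with the replicate block (edgeR adjusted p = 0.0712). No pairing by replicate number was seen, though it is not excluded, and the block changed no other call of the 9 genes. Leaving out single libraries gave 0.39 to 0.50 for Mvk under lefamulin and 0.29 to 0.45 under tiamulin, and 8 or 9 genes called. With a log2(fold change) above 1 as well, 1 gene was called under each drug, but 2 under lefamulin without control 3 or lefamulin 3 (Fdps 1.02 and 1.075), 0 under lefamulin with limma on log2(FPKM + 1) (Mvd 0.99) and 0 under tiamulin without tiamulin 2 (Mvd 0.99).

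Between the drugs the number called was 0, but 1 with no filter (Idi1, -0.27), 2 with GC and length offsets (Idi1 -0.21, Sqle -0.13), 2 with these offsets and the replicate block (-0.21, -0.13), 2 with the offsets and without tiamulin 2 (-0.18, -0.16), and 0 to 1 without single libraries. The sign of Acat2 turned with the offsets (0.025), the offsets with the block (0.024) and the offsets without tiamulin 2 (0.071), and that of Mvd in the last of these (-0.032). The cause of these changes was not tested. Without single libraries the differences ran from -0.046 to 0.048 for Acat2, -0.20 to -0.071 for Hmgcs1 and -0.14 to 0.018 for Mvk. They ran from 0.089 to 0.24 for Pmvk, -0.057 to 0.16 for Mvd and -0.37 to -0.17 for Idi1. For Fdps they were -0.17 to 0.0016, for Fdft1 0.074 to 0.11 and for Sqle -0.15 to -0.074.

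Over the alternatives the number raised under lefamulin and tiamulin was 8 to 10 and 6 to 9 for lanosterol to cholesterol, 3 to 6 and 4 to 7 for SREBP2 regulation and uptake, 0 to 3 and 1 to 3 for isoprenoid branches, 1 to 3 and 2 to 3 for acetyl-CoA supply and isozymes, and 3 to 7 and 3 to 6 for fatty acid synthesis. The number lowered was 0 to 1 under both drugs for SREBP2 regulation and uptake, 0 to 2 under both for isoprenoid branches (0 in the reported fit), 0 to 1 and 0 to 2 for acetyl-CoA supply and isozymes, 2 and 1 to 2 for fatty acid synthesis, and 0 for lanosterol to cholesterol. Over all genes, 1900 were called under lefamulin, 3510 with the 2 groups alone, 3434 with the offsets and 993 to 3708 without single libraries. Under tiamulin 2383 were, 3919 with the offsets and 1462 to 3433 without single libraries. Between the drugs 711 were, 1901 with the offsets, 1271 with no filter, 1073 with DESeq2, 280 with the 2 groups alone, 263 with the block, 461 and 448 with limma, and 204 to 1309 without single libraries.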
